A study of Mus musculus with 10 samples.

Results

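TADs with a score of 3 or higher were examined in mouse embryonic stem cells, in 10 libraries made by exo-Hi-C. A topologically associating domain, or TAD, is a stretch of chromosome whose parts touch each other more often than they touch the sequence on either side. A TAD is called strong here if its score is 3 or higher, it lies on an autosome, and it is over 90 kb and under 1 Mb long. By this rule 227 of the 41342 TADs in the deposited lists were strong. They are 0.873% of the 26001 autosomal TADs of that length range. In all, 555 TADs reached the score. The others were 125 autosomal TADs of 90 kb or less, 19 of 1 Mb or more, 182 on chromosome X and 2 on chromosome Y. Strong TADs were thus chosen by their measured score, so the scores below are a description and are not themselves tested. Their number and share per library, which that threshold sets, are tested.

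All cells were of the line ES-E14TG2a, kept undifferentiated in medium with LIF and inhibitors of GSK3b and MEK, without feeder cells. There were 2 libraries for each of 5 genotypes. WT cells carry no knockout. E1-KO lacks the enhancer E1, E2-KO lacks E2 and E3-KO lacks E3. The double knockout, E1&E3-dKO, lacks E1 together with E3. The labels give neither the position of these enhancers nor whether replicates are separate cultures or clones. The p-values therefore measure only the spread between these samples. Exo-Hi-C adds to Hi-C an exonuclease digestion of linear DNA after the ligation of neighbouring ends. The labels name 2 enzyme combinations, LRC and LIC, without assigning them to libraries. A title starting with w326 was given to 4 libraries (WT replicate 1, E2-KO replicates 1 and 2, E3-KO replicate 2), and other titles to 6.

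In mammalian cells many TADs form when the cohesin ring extrudes a DNA loop until it stops at bound CTCF. The 2 borders then often meet, which shows in Hi-C as a focal contact at the corner of the TAD. Borders limit which enhancers reach which promoters. HOMER, which the processing notes name, scores a TAD by the contacts inside it relative to those with its surroundings. Whether the deposited score is that ratio is not stated. Positions are in mm9 to the nearest 10 kb. No gene table of that build was used, so no gene is assigned to a region.

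E2-KO replicate 1 stood apart from every other library. It held 112 of the 227 strong TADs, 4.31 times as many as the next library, and its recovered depth was the lowest, at 0.0147. This depth is the number of contacts that 2 average bins of 10 kb, 1 Mb apart, would share. The other 9 libraries ranged from 0.0689 to 0.246. Total reads per library are not in the files. The depth was derived from the p-values of the interaction lists. One list, that of WT replicate 2, holds each pair 2 times, and whether its depth is too high for that reason was not tested. For several results, values without E2-KO replicate 1 are given as well.

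Strong TADs were most numerous in E2-KO. WT libraries held 5 and 10, E1-KO libraries 5 and 12, E2-KO libraries 112 and 26, E3-KO libraries 8 and 19, and E1&E3-dKO libraries 10 and 20. Both E2-KO libraries exceeded the other 8, whose genotypes overlapped or met at 10. Means were 7.5 ± 3.54 for WT, 8.5 ± 4.95 for E1-KO, 69 ± 60.8 for E2-KO, 13.5 ± 7.78 for E3-KO and 15 ± 7.07 for the double knockout (SD, n = 2 each).

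As a share of the autosomal TADs of the same length range, strong TADs made up 0.223% and 0.388% in the WT libraries. The shares were 0.239% and 0.504% for E1-KO, 3.14% and 0.989% for E2-KO, 0.317% and 0.641% for E3-KO, and 0.433% and 0.733% for the double knockout. The order of the libraries was nearly that of the numbers, and again only E2-KO lay above all others.

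**Figure D1:**
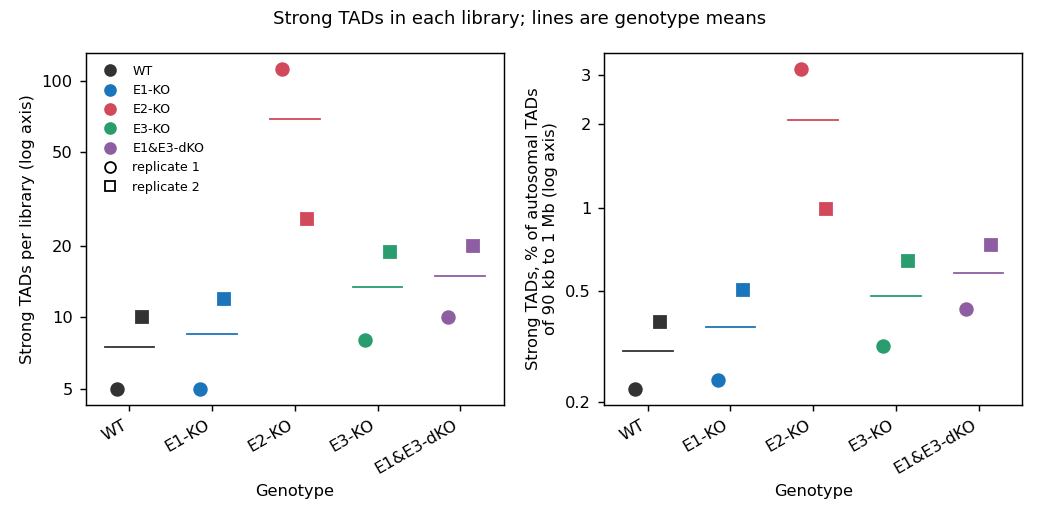
Number of strong TADs (left) and their share of autosomal TADs of over 90 kb and under 1 Mb (right) in each of the 10 libraries, on log axes, by genotype; circles are replicate 1, squares replicate 2, and lines the means of 2 libraries. The E2-KO libraries, with 112 and 26 strong TADs, lie above all others, which hold 5 to 20.

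These differences did not pass a test. Libraries of a genotype differed by 1.32 on average on the log2 scale of number, and the difference from pairs of different genotypes was -0.18 (exact permutation over 945 pairings of the libraries, one-sided p = 0.270, adjusted p = 0.311). Without E2-KO replicate 1 its sign turned, to 0.13. WT minus the knockouts was -1.22 on that scale (exact permutation over 45 choices of 2 libraries, two-sided p = 0.311, adjusted p = 0.311). Without E2-KO replicate 1 this difference was -0.82. Among the libraries titled w326, which include E2-KO replicate 1, it was -2.93, and among the other 6 it was 0.01. For the share the corresponding tests gave exact permutation p = 0.109 between genotypes and p = 0.289 for WT against knockouts (adjusted p = 0.179 and 0.311). WT minus the knockouts was -0.570 percentage points, with -1.37 among the libraries titled w326 and -0.0574 among the others. Without E2-KO replicate 1 it was -0.245 percentage points. An exact test of a lone knockout against WT, 2 libraries each, cannot give a p below 0.333.

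Libraries of lower recovered depth held more strong TADs. Across the 10 libraries, log2 number and depth had Pearson r = -0.878 (permutation p = 0.00042, adjusted p = 0.00588) and Spearman rho = -0.884 (permutation p = 0.00121, adjusted p = 0.00847). Without E1-KO replicate 1 and E2-KO replicate 1, the libraries farthest from the median depth, r was -0.832 (permutation p = 0.0134) and rho -0.790 (permutation p = 0.0253). Within the 6 libraries not titled w326, r was -0.878 (permutation p = 0.0219). The 4 titled w326 are too few for a value. Genotype and depth moved together. Mean depth was 0.199 for WT, 0.180 for E1-KO, 0.122 for E3-KO, 0.0896 for the double knockout and 0.0491 for E2-KO, the reverse of the order of mean numbers. The part of depth in the differences between genotypes was not tested.

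**Figure D2:**
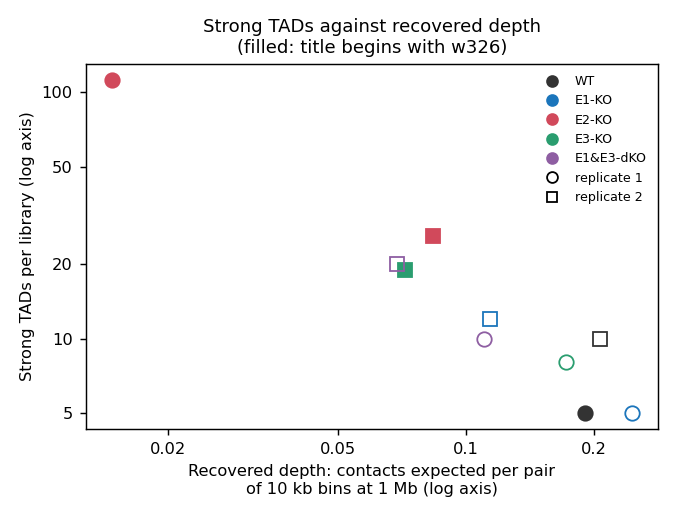
Number of strong TADs in each of the 10 libraries against the recovered depth, in contacts shared by 2 average bins of 10 kb that lie 1 Mb apart, both on log axes; colours are genotypes, circles replicate 1, squares replicate 2, filled symbols titles that begin with w326. E2-KO replicate 1 lies at the upper left with 112 strong TADs at a depth of 0.0147, and the number falls with depth across the others.

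Strong TADs were 100 to 910 kb long, with a median of 210 kb over all libraries and 280 kb without E2-KO replicate 1. In that library 73 of 112 were 200 kb or shorter, against 39 of 115 in the others. The median lengths were 490 and 465 kb for WT, 270 and 285 kb for E1-KO, 170 and 265 kb for E2-KO, 375 and 230 kb for E3-KO, and 385 and 200 kb for the double knockout. Both WT libraries lay above all 8 knockout libraries. The difference was 205 kb (exact permutation over 45 choices, two-sided p = 0.0222, the smallest it can give, adjusted p = 0.0519), so it missed the threshold after adjustment. It was 268 kb among the libraries titled w326 and 162 kb among the others. All autosomal TADs of the length range had medians of 260 and 250 kb for WT and 150 to 270 kb in the knockouts. The WT values rest on 5 and 10 TADs.

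The strongest scores came from E2-KO replicate 1. Its median strong score was 4.29, its highest 21.3, and 42 of its strong TADs reached 5. In the other 9 libraries medians ran from 3.15 to 3.67, and 84 of their 115 strong TADs stayed under 4. The threshold lay within a continuous range. Just inside it lay a TAD of E3-KO replicate 2 on chromosome 17 from 15.19 to 15.62 Mb (3.001). Next came 2 of E2-KO replicate 1, on chromosome 7 from 7.14 to 7.34 Mb (3.002) and chromosome 10 from 21.1 to 21.75 Mb (3.006). Just outside it lay a TAD of E2-KO replicate 1 on chromosome 7 from 27.08 to 27.63 Mb (2.998). Close to it came E1&E3-dKO replicate 2 on chromosome 4 from 143.17 to 143.52 Mb (2.998) and E3-KO replicate 1 on chromosome 10 from 21.09 to 21.75 Mb (2.996). The chromosome 10 domain thus fell on both sides in different libraries.

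Calls that overlapped reciprocally by at least 80% were taken as one region. The 227 strong TADs formed 135 regions, of which 108 were strong in 1 library and 91 of those in E2-KO replicate 1. Without that library 44 regions remained. At least 2 libraries shared 27 regions (22 without E2-KO replicate 1), and at least 5 shared 11. In each library other than E2-KO replicate 1, the number of strong TADs found nowhere else as strong was 0 to 8: 0 in WT replicate 1, 2 in WT replicate 2, 0 in both E1-KO libraries, 5 in E2-KO replicate 2, 0 and 2 for E3-KO, and 0 and 8 for the double knockout. The 8 were among 20 strong TADs.

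A strong TAD was usually a TAD in other libraries too, at whatever score. On average 72.9% ± 16.2 (SD over 10 libraries) of the other 9 libraries held a TAD matching it, against 49.3% ± 12.8 for TADs of lower score weighted to the same lengths. The difference was positive in 10 of 10 libraries and averaged 23.6 percentage points (exact sign-flip permutation, two-sided p = 0.00195, the smallest it can give, adjusted p = 0.00911). It was 18.4 among the libraries titled w326 and 27.0 among the others. Each library's value uses the lists of the other 9, and the same regions recur, so the 10 differences are not independent, as the test takes them to be. In E2-KO replicate 1 the values were 34.1% against 19.3%, the lowest of any library. There 41 of the 112 strong TADs had no match in any other list, compared with 6 of 115 over the other 9 libraries. All 9 other libraries matched 69 of the 227.

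One region was strong in all 10 libraries, on chromosome 13 from 21.93 to 22.14 Mb. Its scores were 3.87 and 4.15 for WT, 4.04 and 4.06 for E1-KO, 4.07 and 3.62 for E2-KO, 4.08 and 3.80 for E3-KO, and 3.40 and 4.62 for the double knockout. The genotypes overlapped, and E2-KO replicate 1 was in the middle of the range. The mean was 3.97 ± 0.330 (SD, n = 10).

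A region of chromosome 6 from 47.12 to 47.61 Mb was strong in 9 libraries. It scored 3.29 and 3.60 for WT, 3.56 and 3.43 for E1-KO, 2.40 and 3.12 for E2-KO, 3.30 and 3.24 for E3-KO, and 4.03 and 3.65 for the double knockout. Here E2-KO replicate 1 had the lowest score. The double knockout had the highest, above both libraries of every other genotype.

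Chromosome 17 from 15.18 to 15.62 Mb was strong in 8 libraries. Scores were 3.31 and 3.64 for WT, 2.87 and 3.06 for E1-KO, 3.42 and 3.04 for E2-KO, 3.59 and 3.00 for E3-KO, and 3.21 and 2.70 for the double knockout. These 3 regions kept scores between 2.40 and 4.62 in every library.

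**Figure D3:**
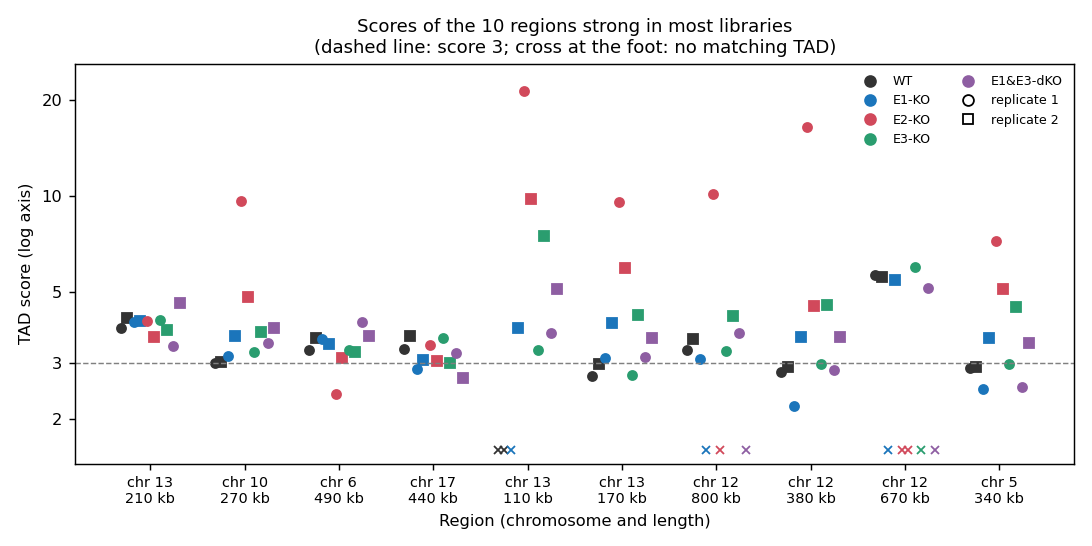
Scores (log axis) in the 10 libraries of the 10 regions that were strong in most of them, each named by chromosome and length; colours are genotypes, circles replicate 1, squares replicate 2, the dashed line is a score of 3, and a cross marks a library without a matching TAD. E2-KO replicate 1 reaches 21.3 in the 110 kb region of chromosome 13 but 4.07 in the 210 kb region of the same chromosome.

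In 4 further regions strong in at least 5 libraries and held in all, E2-KO replicate 1 had the highest score. On chromosome 10 from 21.86 to 22.13 Mb, strong in 9 libraries, scores were 2.99 and 3.03 for WT, 3.15 and 3.63 for E1-KO, 9.65 and 4.83 for E2-KO, 3.24 and 3.76 for E3-KO, and 3.47 and 3.87 for the double knockout. Both WT libraries lay at the bottom and both E2-KO libraries at the top. On chromosome 13 from 65.61 to 65.78 Mb, strong in 7 libraries, they were 2.72 and 2.97 for WT, 3.11 and 4.01 for E1-KO, 9.56 and 5.94 for E2-KO, 2.75 and 4.25 for E3-KO, and 3.13 and 3.59 for the double knockout. Again both E2-KO libraries were highest, and WT overlapped with E3-KO.

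On chromosome 12 from 19.97 to 20.35 Mb, strong in 5 libraries, the scores were 2.81 and 2.92 for WT, 2.20 and 3.62 for E1-KO, 16.5 and 4.52 for E2-KO, 2.97 and 4.55 for E3-KO, and 2.86 and 3.63 for the double knockout. Chromosome 5 from 14.89 to 15.23 Mb was strong in the same 5 libraries. It had 2.89 and 2.91 for WT, 2.48 and 3.59 for E1-KO, 7.24 and 5.10 for E2-KO, 2.98 and 4.49 for E3-KO, and 2.52 and 3.47 for the double knockout. In both regions the libraries of a knockout lay far apart, and no library of WT reached 3.

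Over the 15 regions that were strong outside E2-KO replicate 1 and had a TAD in all 10 libraries, its score was the highest in 7. The ratio of its score to the median of the other 9 ran from 0.700 to 5.82, with a median of 1.29. For the 199 TADs of WT replicate 1 in the length range that all libraries held, the median ratio was 1.14 and E2-KO replicate 1 was highest in 111. The extreme of 5.82 was on chromosome 10 from 117.64 to 117.74 Mb, with 16.3 in E2-KO replicate 1. That call fell outside the rule because it was 90 kb long. The same region was strong in E2-KO replicate 2 (3.81) and E3-KO replicate 2 (4.44).

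A domain of 670 kb on chromosome 12, from 21.01 to 21.68 Mb, was present or absent as a whole. It scored 5.66 and 5.58 in WT, 5.45 in E1-KO replicate 2, 5.98 in E3-KO replicate 1 and 5.15 in E1&E3-dKO replicate 1. In the other 5 libraries, which were E1-KO replicate 1, both of E2-KO, E3-KO replicate 2 and E1&E3-dKO replicate 2, no TAD of any score overlapped it. Where called, it had the highest score of its library, at 5.57 ± 0.302 (SD, n = 5). Of the single and double knockouts of E1 and E3, each had the domain in 1 library and lacked it in the other. In these genotypes the replicates thus differed, while both WT libraries had it and both E2-KO libraries lacked it. Recovered depth was 0.110 to 0.207 in the 5 libraries with the domain. Of those without it, E1-KO replicate 1 had 0.246 and the others 0.0147 to 0.0835. The part of depth was not tested.

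Further regions changed extent between libraries. At the far end of chromosome 12 a domain of up to 800 kb from 116.29 to 117.09 Mb was strong in both WT libraries (3.28 and 3.58), E1-KO replicate 1 (3.08), E2-KO replicate 1 (10.2), both E3-KO libraries (3.27 and 4.22) and E1&E3-dKO replicate 1 (3.72). In E1-KO replicate 2 and E2-KO replicate 2 a TAD from 116.37 to 116.62 Mb took its place, with scores of 3.46 and 4.77. A TAD from 116.47 to 116.64 Mb did so in E1&E3-dKO replicate 2 (3.99). On chromosome 13 a TAD of 110 kb from 68.43 to 68.54 Mb was strong in 7 knockout libraries, with 3.85 for E1-KO replicate 2, 21.3 and 9.83 for E2-KO, 3.28 and 7.52 for E3-KO, and 3.72 and 5.10 for the double knockout. In WT a TAD from 68.09 to 68.61 Mb covered it, at 2.86 and 3.02, the latter itself strong. In E1-KO replicate 1 a TAD from 68.09 to 68.45 Mb reached into it, at 2.83.

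Gains and losses were read against all TADs of the length range. A strong TAD was lost in a knockout when both WT libraries had it strong and neither knockout library had a matching TAD of any score, and gained in the reverse case. WT libraries shared 5 strong TADs. None was lost in E1-KO, E3-KO or E1&E3-dKO, where 13.2%, 9.63% and 14.6% of all TADs of both WT libraries were lost. In E2-KO 1 of the 5 was lost, the domain at 21 Mb of chromosome 12, against 21.5% of all. With 5 members these counts do not separate strong TADs from the rest.

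Among gains, E1-KO had 0 of its 4 shared strong TADs, against 9.14% of all TADs in both of its libraries. E3-KO had 1 of 7, against 12.2%, and E1&E3-dKO 1 of 6, against 12.3%. Both were the chromosome 13 TAD at 68.43 Mb, which lay within a longer TAD in both WT libraries. E2-KO gained 6 of 17, or 35.3%, against 20.7% of all, a difference that rests on few members and was not tested. Its gains with the highest mean score were that TAD (15.6), chromosome 7 from 24.42 to 24.57 Mb (9.24) and chromosome 7 from 66.9 to 67.07 Mb (8.38). The first chromosome 7 region scored 14.6 and 3.82 in E2-KO and 3.32 in E1&E3-dKO replicate 2. The second scored 12.1 and 4.67 in E2-KO and 4.27 in the same double knockout library. Neither had a matching TAD in WT, E1-KO or E3-KO, although a longer one from 24.38 to 24.61 Mb overlapped the first in E3-KO replicate 2, at 3.61. The gain in E2-KO was 12 without its replicate 1 and 76 without its replicate 2. All knockouts were set against the same WT libraries.

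Few regions belonged to a genotype. Regions strong in both libraries of a genotype numbered 17 for E2-KO, 7 for E3-KO, 6 for the double knockout, 5 for WT and 4 for E1-KO. Only E2-KO had any that no other genotype had strong, and these were 3. Chromosome 4 from 143.18 to 143.51 Mb scored 11.7 and 3.64 in E2-KO, and 1.97 to 3.00 in the other 8 libraries, all of which held it. Chromosome 8 from 73.7 to 74.34 Mb scored 9.77 and 3.15 in E2-KO and 1.74 to 2.63 in the 7 other libraries with a matching TAD. Chromosome 6 from 130.02 to 130.3 Mb scored 6.83 and 3.02, and was otherwise held by E1&E3-dKO replicate 1 alone, at 1.75. For the first 2 the TAD was thus present in other genotypes at a lower score.

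Strong TADs of a genotype's libraries overlapped by 78.6% of the shorter list on average, against 68.8% between genotypes. The difference of 9.76 percentage points missed the threshold (exact permutation over 945 pairings, one-sided p = 0.0508, adjusted p = 0.102). At a score threshold of 2.5 it was 14.7 (exact permutation p = 0.00106, unadjusted), and at 4 it was 12.2 (exact permutation p = 0.240). Taken over both lists together, as a Jaccard index, it was 3.01 (exact permutation p = 0.293). With 5 TADs from each library it was 6.5 (exact permutation p = 0.333). With matching at an overlap of 50% or 90% it was 7.99 or 2.98 (exact permutation p = 0.116 and 0.329). With 1 library left out it ran from 1.11 to 16.9, and passed unadjusted without E1-KO replicate 1 (12.8, exact permutation p = 0.0307) and without E1&E3-dKO replicate 1 (16.9, exact permutation p = 0.0138). WT libraries shared 5 TADs, 100% of the shorter and 50% of the longer list. E2-KO libraries shared 17, or 65.4% of the shorter and 15.2% of the longer. For windows of 1 Mb holding a strong TAD the values were 83.2% and 76.8% (exact permutation p = 0.141, adjusted p = 0.179). Without WT replicate 2 the difference turned to -0.669, and without E2-KO replicate 1 it was 2.69.

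Chromosomes 12 and 13 held the most strong TAD calls. These carried 36 and 37 of the 227, which is 3.27% and 3.15% of their TADs in the length range. Next by number came chromosome 7 with 25, chromosome 6 with 19, chromosome 10 with 17 and chromosome 17 with 16, which is 1.67%, 1.21%, 1.20% and 1.54%. Without E2-KO replicate 1 chromosomes 12 and 13 had 2.71% and 2.94%, against 0.608%, 0.810%, 0.976% and 0.993% for those 4. Chromosome 16 had 1 (0.105%) and chromosome 2 had 3 (0.146%), all in E2-KO replicate 1. Without that library chromosomes 12 and 13 held 55 of 115 strong TADs, or 47.8%, compared with 16.1% in it. They hold 8.76% of all TADs of the length range. These counts include a region once for each library. Of the 135 distinct regions, 27 (20%) lay on them, and of the 44 strong outside E2-KO replicate 1, 16 (36.4%). By distinct regions chromosome 7 had the most, 19, ahead of chromosome 12 with 16 and chromosomes 4 and 13 with 11 each. By library they carried 3 of 5 and 4 of 10 for WT, 3 of 5 and 8 of 12 for E1-KO, 18 of 112 and 10 of 26 for E2-KO, 5 of 8 and 10 of 19 for E3-KO, and 6 of 10 and 6 of 20 for the double knockout. Every library thus had more there than that share of all TADs. On chromosomes 2, 3, 9, 16 and 18 strong TADs occurred only in E2-KO replicate 1.

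**Figure D4:**
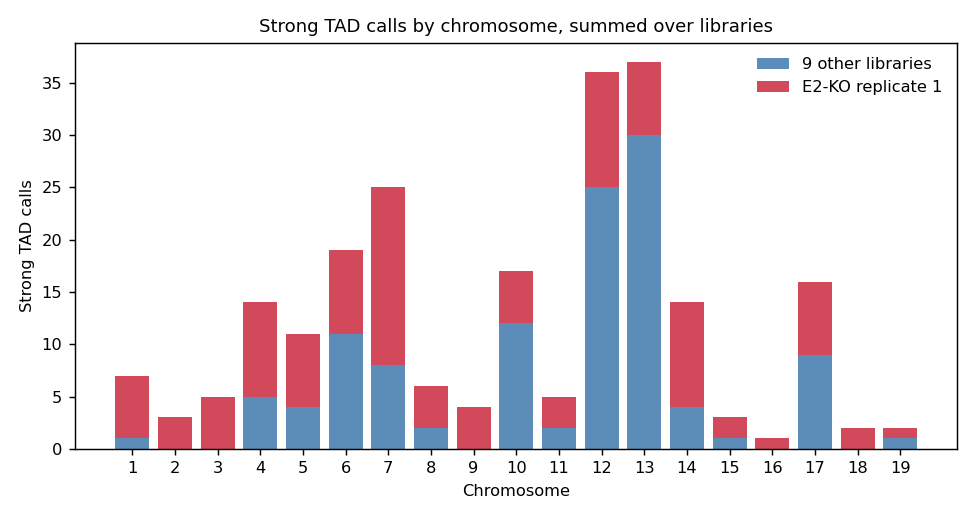
Strong TAD calls on each autosome, summed over libraries, with E2-KO replicate 1 stacked in red on the 9 other libraries in blue. Chromosomes 12 and 13 carry 25 and 30 calls from the 9 other libraries, and chromosome 7 carries 17 from E2-KO replicate 1.

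Within chromosomes they gathered in a few places. The 135 regions fell into 112 windows of 1 Mb, 15 of which held 2 or more, and 58 regions had another within 1 Mb. The fullest window was at 116 Mb of chromosome 12, with 5 regions and strong calls in all 10 libraries. Next came 68 Mb of chromosome 13 with 4 regions and calls in 8 libraries. At 21 Mb of chromosome 10 there were 3 regions. One of them, from 21.86 to 22.13 Mb, was strong in 9 libraries, and its calls fell into this window or the next by their midpoints. At 130 Mb of chromosome 6 and 145 Mb of chromosome 4 there were 3 regions each, and calls in the 2 E2-KO libraries only. In 78 of the windows all strong calls came from E2-KO replicate 1.

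Strong TADs often had a listed interaction joining their 2 ends. The interaction list of each library names pairs of 10 kb bins with more reads than their distance predicts. Of the 227 strong TADs, 67 (29.5%) had such a pair with both bin centres within 20 kb of the ends, against 1.8% of all TADs of the length range. The shares were 0 of 5 and 0 of 10 for WT, 1 of 5 and 5 of 12 for E1-KO, 33 of 112 and 11 of 26 for E2-KO, 2 of 8 and 8 of 19 for E3-KO, and 3 of 10 and 4 of 20 for the double knockout. Every knockout library exceeded both WT libraries. Without E2-KO replicate 1 the total was 34 of 115 (29.6%).

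Weighted to the lengths of the strong TADs, 1.28% ± 1.64 of the other TADs had such a pair, against 25.1% ± 15.7 of the strong ones (SD over 10 libraries). The difference of 23.8 percentage points was positive in 8 of 10 libraries (exact sign-flip permutation, two-sided p = 0.00781, adjusted p = 0.0273). It was 27.7 among the libraries titled w326 and 21.2 among the others. Both exceptions were the WT libraries. The test takes libraries as independent, but the same regions recur among them. Outside E2-KO replicate 1 the 34 joined strong TADs belonged to 14 distinct regions. Score and pairs of a library also come from the same reads. The call was lost at a score threshold of 4, where the difference was 19.6 (exact sign-flip permutation p = 0.0625). It was also lost with bin centres within 10 kb of the ends, where it was 2.34 (exact sign-flip permutation p = 0.250). The bin centres of 50 of the 67 pairs lay 15 kb inside both ends, so a limit of 10 kb leaves them out.

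**Figure D5:**
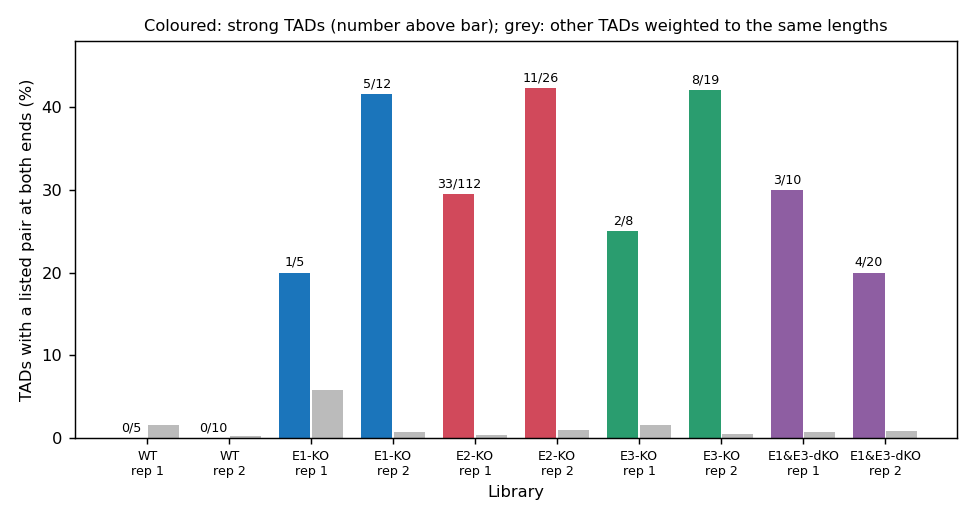
Share of TADs whose 2 ends are joined by a listed pair of bins within 20 kb, in percent, for strong TADs (coloured by genotype, with their number above) and for other TADs of the same library weighted to the same lengths (grey). Strong TADs lie between 20% and 42.3% in the 8 knockout libraries and at 0 in both WT libraries, and the other TADs lie at 5.77% or below.

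For this share WT minus the knockouts was -31.3 percentage points (exact permutation over 45 choices, two-sided p = 0.0222, the smallest it can give, adjusted p = 0.0519). It missed the threshold after adjustment, and was -38.0 among the libraries titled w326 and -27.3 among the others. For 0 of 5 and 0 of 10 the upper bounds of the exact 95% Clopper-Pearson interval are 52.2% and 30.8%, which cover counting error only. At a score threshold of 2.5 the difference was -10.6 percentage points (exact permutation p = 0.111). The same places were then followed in every library, whatever the score there, at 1 fixed pair of ends per region. These ends came from the call of 1 library, most often E2-KO replicate 1. They came from WT only for the chromosome 17 region at 15.18 Mb. Whether this choice favoured the E2-KO libraries was not tested. At the ends of the 27 regions strong in at least 2 libraries, the regions with a listed pair numbered 9 and 5 for WT, 7 and 8 for E1-KO, 11 and 10 for E2-KO, 8 and 9 for E3-KO, and 7 and 6 for the double knockout. Here WT replicate 1 lay within the range of the knockout libraries, 6 to 11, and WT replicate 2 was 1 below it. Pairs at a library's own ends drop out where these differ from the fixed ends. This held for E1-KO replicate 2 and E3-KO replicate 2 at 21.86 Mb of chromosome 10 (49 and 43 reads). It also held for E1&E3-dKO replicate 2 at 65.61 Mb of chromosome 13 (10) and E2-KO replicate 2 at 24.42 Mb of chromosome 7 (12). Strong TADs of WT had no such pair to lose. The number of listed pairs of over 90 kb and under 1 Mb also differed, with 252 and 32 in WT against 76 to 534 in the knockouts.

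Chromosome 13 held 23 of the 67 joined strong TADs. Without E2-KO replicate 1 it held 20 of 34, which belonged to 5 of 14 distinct regions, so a few regions recurred over libraries. The pair at 66.515 and 66.815 Mb joined the ends of the TAD from 66.5 to 66.83 Mb. At these ends 16 and 14 reads were listed in WT, 32 for E1-KO replicate 2, 33 and 24 for E3-KO, and 15 and 29 for the double knockout, with no pair in E1-KO replicate 1 or E2-KO. The TAD was strong in those 5 knockout libraries (3.02 to 4.41), scored 2.38 for WT replicate 1 and 2.54 for E1-KO replicate 1, and was not called in the others. In WT the contact was therefore listed in both libraries, without a strong TAD.

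At the ends of the 110 kb TAD of chromosome 13, the reads were 20 and 16 for E1-KO, 9 and 30 for E2-KO, 15 and 23 for E3-KO, and 14 and 16 for the double knockout, with no pair in WT. At the ends of its neighbour from 68.24 to 68.41 Mb, all libraries had a pair, with 10 and 11 reads for WT, 12 and 17 for E1-KO, 27 and 27 for E2-KO, 12 and 18 for E3-KO, and 9 and 8 for the double knockout. The same held for chromosome 8 from 73.7 to 74.34 Mb, with 21 and 14 reads for WT, 26 and 34 for E1-KO, 36 and 50 for E2-KO, 33 and 33 for E3-KO, and 17 and 20 for the double knockout. Reads are not scaled by depth, and in both of these the library of lowest depth was among the highest. The TADs themselves were strong only in E2-KO replicate 2 and E3-KO replicate 2 in the first case, and in both E2-KO libraries in the second.

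Further TADs joined at their ends were at chromosome 4 from 143.59 to 143.92 Mb, with pairs in 9 libraries, and chromosome 12 from 89.08 to 89.54 Mb, with pairs in 8. On chromosome 4 the scores were 12.8 and 3.79 for E2-KO, 3.01 in E3-KO replicate 2, and 1.81 to 2.73 in the 5 other libraries that held it. On chromosome 12 they were 6.53 and 3.20 for E2-KO, 3.11 in E3-KO replicate 2, and 2.03 to 2.43 in 4 others. Several regions had none. No pair joined the ends of the chromosome 13 region at 21.93 Mb, the chromosome 6 region at 47.12 Mb, the chromosome 17 region at 15.18 Mb or the chromosome 12 domain at 21.01 Mb in any library.

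Listed pairs were also counted inside strong TADs. These counts include pairs at the ends whose bin centres lay inside, and were not made without them. Of the 67 end pairs, 50 had their bin centres 15 kb inside both ends. At least 1 pair with both bins inside was found in 128 of 227 (56.4%), against 3.27% of all TADs of the length range. The share was higher than in the other TADs, weighted to the same lengths, in 10 of 10 libraries, with means of 54.3% ± 18.3 and 2.92% ± 3.63 (SD over 10 libraries). In WT 1 of 5 and 3 of 10 strong TADs held a pair, or 20% and 30%, and in the knockouts 50% to 80%. The fullest was the end domain of chromosome 12 in E2-KO replicate 1, with 22 pairs, followed by 4 TADs with 16 pairs each. These were chromosome 8 from 22.19 to 22.85 Mb and chromosome 6 from 130.5 to 130.98 Mb in E2-KO replicate 1, chromosome 5 from 14.89 to 15.22 Mb in E2-KO replicate 2, and the end domain of chromosome 12 in E3-KO replicate 2. Score and listed pairs come from the same reads of a library, so they are not independent of each other.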

How the data were processed

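The submitters' processing notes name HiC-Pro 2.10.0 and HOMER, with mm9 as the build. The deposited TAD lists give the ends and a score of each TAD, never under 1.5, whose formula is not given in the sources used here. For each pair of 10 kb bins, the deposited interaction lists hold the unscaled count of reads and a p-value, adjusted values being 0.01 or less. They also hold, per the values themselves, a deposited bias factor for every bin, used here as a ratio to the average bin. No source used here names the tool. Each library has its own deposited files. The list of WT replicate 2 holds each pair in both orientations, and each was used once.

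Depth was recovered as the mean of a Poisson distribution whose upper tail at the listed reads equals the listed p-value, over the product of both bias factors, interpolated at 1 Mb. Whether the lists were made with that distribution was not tested. TADs matched at a reciprocal overlap of at least 80%. Comparisons of strong with other TADs weighted the latter to the length classes of the strong ones (to 200 kb, to 400 kb, longer). Each library gave 1 value, and the 14 p-values from exact or 100000-resample permutation tests were adjusted by Benjamini-Hochberg, with 0.05 as the threshold. Functions were tested on simulated data. Python 3.11.15, numpy 2.4.6 and scipy 1.17.1 were used. The members and lists were chosen with earlier results of these data known. Named regions followed a rule: the 10 regions strong in most libraries, up to 3 strong in both libraries of 1 genotype alone, up to 3 lost and 3 gained per knockout, the 5 fullest 1 Mb windows, the 5 regions joined at their ends in most libraries, and 3 TADs on each side of the threshold. Further TADs (those starting at 117.64 Mb on chromosome 10, 68.09 and 68.24 Mb on chromosome 13, 116.37 and 116.47 Mb on chromosome 12 and 24.38 Mb on chromosome 7, and those with 16 pairs inside) were named after their values were seen. Pairs inside TADs and pairs followed at the 27 recurrent regions were also added later, as were the counts of distinct regions without E2-KO replicate 1.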

Additional observations from a re-analysis of the deposited data

How the results depend on the processing

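Of the alternatives run, 225 values kept direction and side of the threshold or moved little, and the rest follow. The cause of these changes was not tested, except where named. Replicate numbers did not pair the libraries: correlations of replicate differences ran from -0.379 to 0.352 over pairs of genotypes. With a replicate block the sharing of strong TADs within minus between genotypes stayed 9.76 percentage points (exact permutation p = 0.0417), and the block changed no other call. Among libraries titled w326, WT minus knockouts was -2.93 in log2 number and -1.37 in share, and strong minus other TADs found elsewhere was 18.4. Among the other titles the difference in log2 number was 0.0118.

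At a score threshold of 2.5, WT minus knockouts was 137 kb in length (exact permutation p = 0.0667) and -10.6 in the share with a pair at the ends (exact permutation p = 0.111), while sharing was 14.7 (exact permutation p = 0.00106) and sharing of windows 10.8 (exact permutation p = 0.0116). Losses at 2.5 were 1 in E1-KO, 2 in E2-KO, 2 in E3-KO and 2 in E1&E3-dKO, and gains 13 in E2-KO, 2 in E3-KO and 2 in E1&E3-dKO. At 4 the gains were 2 in E2-KO, 0 in E3-KO and 0 in E1&E3-dKO. The end-pair share at 4 gave 1.17 within minus between genotypes (exact permutation p = 0.619), -26.3 for WT minus knockouts (exact permutation p = 0.333) and 19.6 for strong minus other TADs (exact sign-flip permutation p = 0.0625). With 5 TADs from each library, share differences were 0.000901 between genotypes and 0.0153 for WT minus knockouts, values fixed by the number of TADs listed, and the length difference was 221 kb (exact permutation p = 0.0667). With pairs within 10 kb of the ends, WT minus knockouts was -3.24 (exact permutation p = 0.667) and strong minus other TADs 2.34 (exact sign-flip permutation p = 0.250). Without E2-KO replicate 1, 44 distinct regions were left of 135.

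With each library left out in turn, the genotype difference in log2 number ran from -0.40 to 0.13, positive without E2-KO replicate 1. WT minus knockouts ran from 190 to 221 kb in length and from -32.9 to -29.7 in end-pair share. Without either WT library both had an exact permutation p of 0.111, the smallest that 1 library against 8 allows. Sharing ran from 1.11 to 16.9 and sharing of windows from -0.669 to 11.99, negative without WT replicate 2 and past the threshold without E1&E3-dKO replicate 1 (exact permutation p = 0.0434). Losses ran from 0 to 2 in E1-KO, 1 to 2 in E2-KO, 0 to 2 in E3-KO and 0 to 2 in E1&E3-dKO, and gains from 0 to 2, 6 to 76, 1 to 6 and 1 to 5 in the same order. Requiring a TAD in 1 library instead of 2 widens these counts by construction. Total reads are unknown, and WT values rest on 5 and 10 strong TADs.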
